A study of Homo sapiens with 18 samples.

Results

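The endoplasmic reticulum (ER) module described here holds 36 genes for protein folding, degradation of misfolded proteins, the unfolded protein response and the first steps of secretion, followed in human prostate cancer cells after androgen treatment and after knockdown of TRIM24. The members are all probe sets that the platform annotation assigns to 1 of these gene symbols. Of the 36 genes, 34 had such a probe set, and all 34 passed the filter on low values, against 13607 genes tested of 19775 with a probe set. SYVN1, a ubiquitin ligase of ER-associated degradation, is named only by a probe set shared with other symbols, and KDELR2, a retrieval receptor, was not analysed here. Each of the 18 samples is 1 Affymetrix array of total RNA, and the 6 groups have 3 arrays each. LNCaP, an androgen-responsive prostate cancer cell line, carried a control siRNA or an siRNA against TRIM24, a chromatin reader and coactivator of the androgen receptor, each with ethanol vehicle or with 10 nM dihydrotestosterone (DHT), the potent natural androgen. LNCaP-abl, a subline of LNCaP that grows without androgen, carried the same siRNAs and was given vehicle only. Transfection lasted 48 h and treatment 24 h, and the growth protocol states 48 h in hormone-depleted medium, so the vehicle groups are androgen-starved cells. Each line is 1 established cell line, and the labels do not state whether replicates came from separate cultures; a p-value here covers no more than the spread among arrays, which may be technical.

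The ER receives secreted and membrane proteins through the SEC61 channel, removes their signal peptides, and folds them with chaperones of the HSP70, HSP90 and lectin types and with disulfide isomerases. Proteins that fail to fold are drawn back to the cytosol and degraded, and folded cargo leaves in vesicles coated with COPII. When unfolded proteins build up, the sensors IRE1 (encoded by ERN1), ATF6 and PERK (encoded by EIF2AK3) start the unfolded protein response, in which IRE1 splices the XBP1 mRNA and ATF6 and XBP1 raise the genes of folding and degradation. The prostate luminal epithelium is a secretory tissue, and androgen is known to raise its secretory machinery. The arrays measure mRNA levels, and neither the splicing of XBP1 nor the cleavage of ATF6 nor any protein was measured.

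Promoters of such genes are known for ER stress response elements. These motifs were sought in the RefSeq promoter windows of GRCh38.p14, which run from 250 bases before to 50 bases after an annotated start. A gene can have several windows, and it counted as having a motif when any of them held it. The motifs were ERSE (CCAAT, any 9 bases, CCACG), ERSE-II (ATTGG, any 1 base, CCACG), the core of the unfolded protein response element (TGACGTGG) and the androgen response element (AGAACA, any 3 bases, TGTTCT), each on both strands. ERSE and ERSE-II share the ending CCACG, which the reverse strand of TGACGTGG also contains. A window was matched for 32 members, and ERSE was found in 7 of them (HSPA5, HSP90B1, CALR, CANX, CRELD2, PDIA6 and XBP1) against 25 of 27305 genes with a window, or 0.0916%. ERSE-II was found in SDF2L1 and HERPUD1, against 0.0696% of all genes, and TGACGTGG in SSR3, SEC24A and KDELR3, against 0.927%. ERSE was first defined in promoters of genes of this kind, so its share among the members is a description. The androgen response element was found in 0 of these 32 members, which have 42 windows, and in 1 of the 27305 genes. No window of CANX, PDIA4, PDIA6, CREB3L4 or SEC24A is set on the gene's outermost annotated start, nor is the SSR3 window with TGACGTGG. For PDIA4 that start still lies inside a window. PDIA3, SPCS1, SEC24D and KDELR2 have no entry. 4 windows are shown, 2 with a motif and 2 of the genes with the largest responses to DHT, all on the gene's strand and in lower case, with the letters of a motif in capitals. The HSPA5 window is chr9:125241294-125241593 on the minus strand, with an ERSE whose first base lies 66 bases before the start. The HERPUD1 window is chr16:56931892-56932191 on the plus strand, with an ERSE-II 117 bases before the start. The ERN1 window, chr17:64130095-64130394 on the minus strand, and the DNAJB9 window, chr7:108569624-108569923 on the plus strand, hold none of the 4 motifs, which says only that these letters are not in these windows.
HSPA5: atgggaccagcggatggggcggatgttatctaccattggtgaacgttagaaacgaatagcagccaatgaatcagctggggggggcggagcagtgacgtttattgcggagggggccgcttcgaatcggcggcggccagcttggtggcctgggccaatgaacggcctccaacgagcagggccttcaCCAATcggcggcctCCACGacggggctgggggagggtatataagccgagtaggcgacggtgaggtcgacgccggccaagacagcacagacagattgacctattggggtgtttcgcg
HERPUD1: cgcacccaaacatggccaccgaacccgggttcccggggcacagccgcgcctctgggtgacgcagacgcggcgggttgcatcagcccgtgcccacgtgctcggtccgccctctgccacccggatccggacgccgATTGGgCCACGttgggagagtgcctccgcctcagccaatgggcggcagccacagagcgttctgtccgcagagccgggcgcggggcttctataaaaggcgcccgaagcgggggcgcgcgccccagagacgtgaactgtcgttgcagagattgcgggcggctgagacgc
ERN1: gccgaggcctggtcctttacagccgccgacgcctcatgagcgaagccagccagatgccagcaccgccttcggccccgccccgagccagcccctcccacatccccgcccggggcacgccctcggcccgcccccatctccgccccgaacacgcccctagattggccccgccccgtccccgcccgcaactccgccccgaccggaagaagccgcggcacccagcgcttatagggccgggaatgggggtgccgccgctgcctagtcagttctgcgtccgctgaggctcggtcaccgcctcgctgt
DNAJB9: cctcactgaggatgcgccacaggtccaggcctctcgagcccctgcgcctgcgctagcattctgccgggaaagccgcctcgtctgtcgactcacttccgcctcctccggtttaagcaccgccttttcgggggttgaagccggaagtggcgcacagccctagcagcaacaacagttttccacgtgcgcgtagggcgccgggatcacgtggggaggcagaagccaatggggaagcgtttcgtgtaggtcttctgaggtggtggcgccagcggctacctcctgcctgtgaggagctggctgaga

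Before the results, the labels were checked. TRIM24 was lower with its siRNA in every setting, by a log2 difference of -1.99 ± 0.05 (SE) in vehicle-treated LNCaP, -2.14 ± 0.05 under DHT and -2.08 ± 0.05 for LNCaP-abl. With DHT and control siRNA the androgen targets KLK3, KLK2, FKBP5 and TMPRSS2 were higher by 5.62, 4.95, 3.46 and 2.54 on the log2 scale. Of 8 luminal markers, 7 had a probe set and all 7 were above the filter value of 5.88 in at least 1 group, while the 2 basal markers measured, KRT5 and KRT14, stayed at or below 5.77 in every group mean. Of the 4 markers of plasma cells, which are rich in ER, JCHAIN and TNFRSF17 were below that value, at 2.8 to 2.89 and 3.81 to 4 in the 6 group means, and PRDM1 and SDC1 were above it. PRDM1, a transcription factor, had group means of 6.12 to 6.64. SDC1, a plasma cell marker that epithelia also make, had group means of 10.09 with control and 9.22 with TRIM24 siRNA in vehicle-treated LNCaP, 9.67 and 8.95 under DHT, and 10.5 and 10.12 for LNCaP-abl, and its part in the knockdown results was not tested. The mean over the 4 plasma cell markers was 5.42 to 5.95 on the 18 arrays, and the means over the fibroblast, leukocyte and endothelial markers were 5.27 to 5.9, 4.22 to 4.5 and 5.39 to 5.73. Some single markers in these lists passed the filter. Of 5 fibroblast markers 3 did, with group means of 7.24 to 7.49 for COL1A1, 4.58 to 6.67 for COL3A1 and 5.8 to 6 for DCN. Of 3 endothelial markers PECAM1, at 6.05 to 6.22, and VWF, at 6.25 to 6.67, did. Of 3 leukocyte markers measured CD3E did, at 5.76 to 5.9. Array medians lay between 5.83 and 5.93, and arrays of 1 group correlated at 0.996 to 0.998. The log2 difference between the 3' and 5' control probe sets of GAPDH, a sign of RNA quality and labelling, moved with the siRNA, from 0.522 ± 0.032 (SD, n = 3) to 0.591 ± 0.015 in vehicle-treated LNCaP, from 0.556 ± 0.014 to 0.63 ± 0.013 under DHT, and in the abl subline from 0.56 ± 0.014 to 0.641 ± 0.024.

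**Figure D1:**
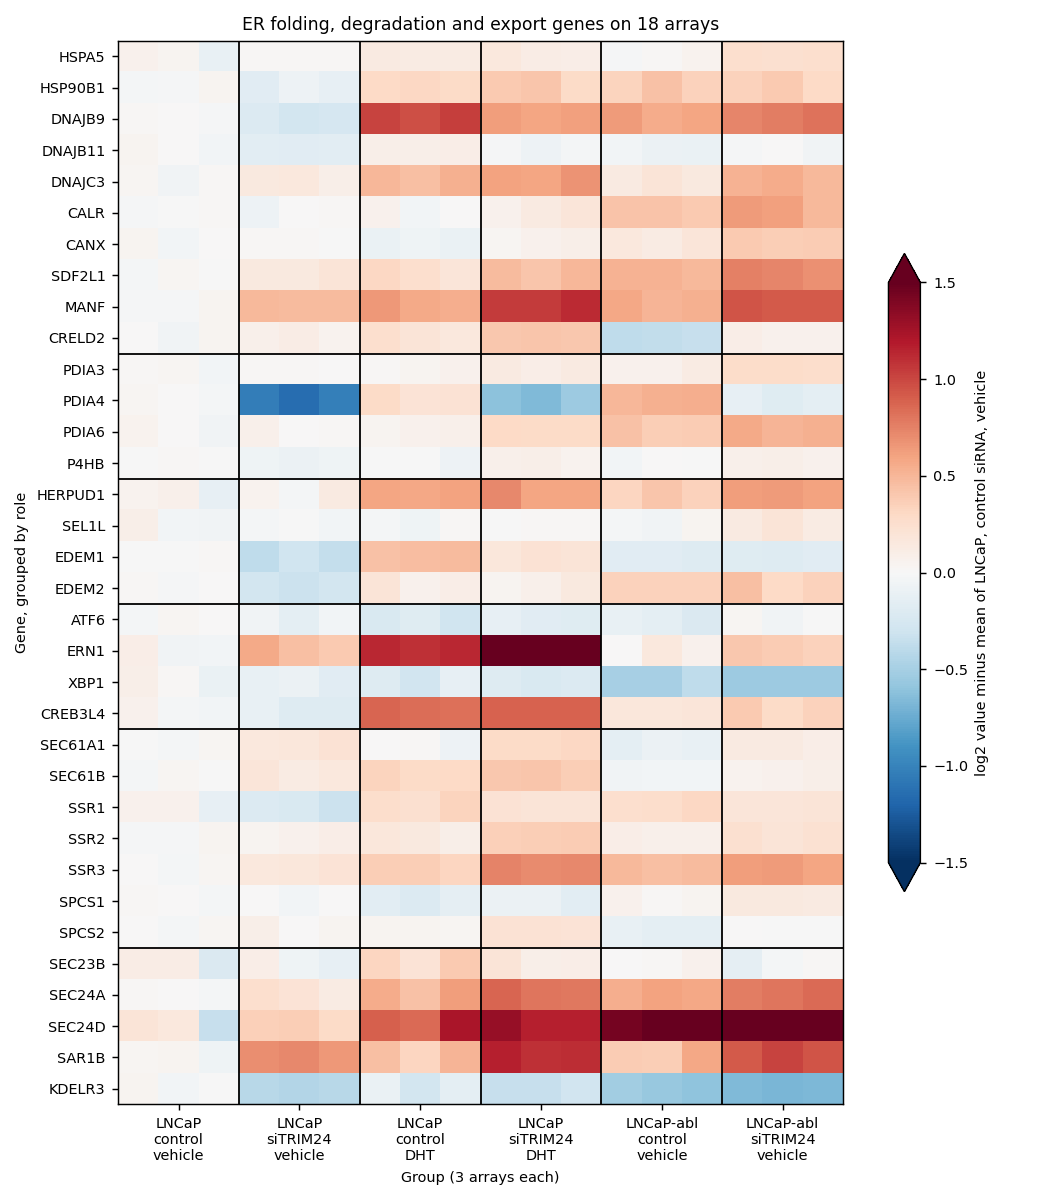
Expression of the 34 measured genes on each of the 18 arrays, in rows grouped by role and columns grouped by cell line, siRNA and treatment. Colour gives the log2 value minus the gene's mean over the 3 arrays of LNCaP with control siRNA and vehicle, and values past 1.5 take the end colour. DNAJB9, ERN1, CREB3L4 and SEC24D are red in both DHT groups, and PDIA4 is blue in the 2 LNCaP groups with TRIM24 siRNA.

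The first comparison asks which ER genes respond to androgen in LNCaP with control siRNA. Of the 34 members, 22 rose with DHT, 5 fell and 7 did not pass the test, where a gene is called at an adjusted p under 0.05 in the limma fit over all 13607 genes. Over all genes 45.7% were called, 19.4% higher and 26.4% lower. The arrays of the 2 groups did not overlap for 28 members, against 52.5% of all genes. The median log2 difference was 0.22 over the members and -0.04 over all genes. The members have bright probe sets, and bright genes are called more often: among the 2777 genes with a mean log2 value of at least 10, 27.3% were higher and 33.8% lower, against 17 and 3 of the 27 members at that level. The largest rises were in a sensor, a co-chaperone, a coat subunit and a transcription factor, while the lectin chaperones and most disulfide isomerases moved little.

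Among the sensors and transcription factors 2 rose and 2 fell. ERN1, the IRE1 sensor, read 8.77, 8.63 and 8.63 on the vehicle arrays and 9.81, 9.77 and 9.81 on the DHT arrays. All 3 DHT arrays were above all vehicle arrays, and the difference was 1.12 ± 0.05 (log2, SE), or 2.17-fold, with an adjusted p of 2.09e-11. Its second probe set gave 1.30 and its dimmest -0.07. CREB3L4, a membrane-bound transcription factor of the CREB3 family that is abundant in prostate, rose by 0.85 ± 0.04, from group means of 9.68 to 10.52. ATF6 went from 9.78, 9.85 and 9.82 to 9.59, 9.63 and 9.52. Its arrays did not overlap either, and the fall was -0.23 ± 0.04, with an adjusted p of 0.000246, but its 3 other probe sets gave 0.01, 0.13 and 0.0048, none called. Other probe sets are called here in a limma fit of every probe set alone, adjusted over 29870 probe sets. XBP1, the transcription factor that IRE1 activates, read 11.55, 11.48 and 11.36 with vehicle and 11.27, 11.17 and 11.34 with DHT. The lowest vehicle array lay just above the highest DHT array, and the difference was -0.20 ± 0.05 (adjusted p = 0.00367).

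Of the 10 chaperones and co-chaperones 8 rose and 1 fell. DNAJB9, a co-chaperone of HSPA5 also known as ERdj4, read 10.41, 10.40 and 10.37 with vehicle and 11.41, 11.36 and 11.44 with DHT. The groups were far apart, and the rise of 1.01 ± 0.03, or 2.01-fold, was shared by its 3 probe sets, which gave 1.01, 1.26 and 1.25. MANF, a secreted ER stress protein, rose by 0.59 ± 0.03, and DNAJC3, another co-chaperone of HSPA5, by 0.49 ± 0.04. HSPA5 itself, the central HSP70 chaperone of the ER, read 13.51, 13.48 and 13.33 with vehicle and 13.57 on each of the 3 DHT arrays, a difference of 0.13 ± 0.04. Vehicle replicate 3 was low, and without it the difference was 0.07 with an adjusted p of 0.0721. A second, dimmer probe set of HSPA5 was called higher, at 0.23. Smaller rises were called for HSP90B1 (0.30), SDF2L1 (0.25), CRELD2 (0.20) and DNAJB11 (0.09), the last a call lost without any 1 of 3 arrays. CANX, the membrane-bound lectin chaperone, fell by 0.09 on the log2 scale, a call lost when either of 2 vehicle or 2 DHT arrays was left out, and its soluble relative CALR did not pass the test at 0.01 ± 0.04.

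The 4 disulfide isomerases, which form and rearrange disulfide bonds, gave 1 call, a rise of PDIA4 by 0.24 ± 0.04. PDIA6, PDIA3 and P4HB gave 0.06, 0.04 and -0.03, with intervals from -0.09 to 0.13 across the 3 genes; another probe set of PDIA3 was called lower, at -0.13. In ER-associated degradation 3 of 4 genes rose. HERPUD1, which brings the degradation complex together, rose by 0.59 ± 0.05, and the mannosidase-like proteins EDEM1 and EDEM2, which mark misfolded glycoproteins, rose by 0.46 ± 0.03 and 0.12 ± 0.04, the latter a call lost without any 1 of 5 arrays. SEL1L, the scaffold of the ligase complex, gave -0.02 ± 0.04 and did not pass.

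Entry into the ER gave 4 rises and 1 fall among 7 genes. SSR3, SEC61B, SSR1 and SSR2, subunits of the translocon and of its associated TRAP complex, rose by 0.35, 0.31, 0.28 and 0.13, and the signal peptidase subunit SPCS1 fell by 0.17 on the log2 scale. SEC61A1, the channel itself, and SPCS2 did not pass, at -0.01 and 0.04, while 2 other probe sets of SPCS2 were called higher, at 0.16 and 0.50. Exit from the ER gave 4 rises and 1 fall among 5 genes. SEC24D, a cargo-binding subunit of the COPII coat, read 8.38, 8.34 and 7.83 with vehicle and 9.08, 9.03 and 9.41 with DHT. The groups did not overlap although 1 vehicle array was low, and the rise was 0.99 ± 0.12. SEC24A, a second cargo subunit, SAR1B, the GTPase that starts the coat, and SEC23B, the partner of the SEC24 proteins, rose by 0.54 ± 0.05, 0.43 ± 0.06 and 0.31 ± 0.08. KDELR3, a receptor that returns escaped chaperones, went from 9.47, 9.39 and 9.42 to 9.33, 9.15 and 9.28. Its highest DHT array stayed under its lowest vehicle array, and the difference was -0.17 ± 0.04.

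The 7 members with an ERSE had DHT differences from -0.20 to 0.30 with a median of 0.06, and 3 of them rose. The 24 other tested members with a promoter window had differences from -0.23 to 1.12 with a median of 0.29, and 18 rose. HSPA5, whose ERSE is printed here, is among the small changes with the probe set used. ERN1 and DNAJB9, whose windows hold none of the 4 motifs, have the largest. HERPUD1, with an ERSE-II, lies between them. The printed windows were chosen with the DHT values known, so this contrast tests nothing. SEC24D, which rose by 0.99, has no window and is in neither count.

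**Figure D2:**
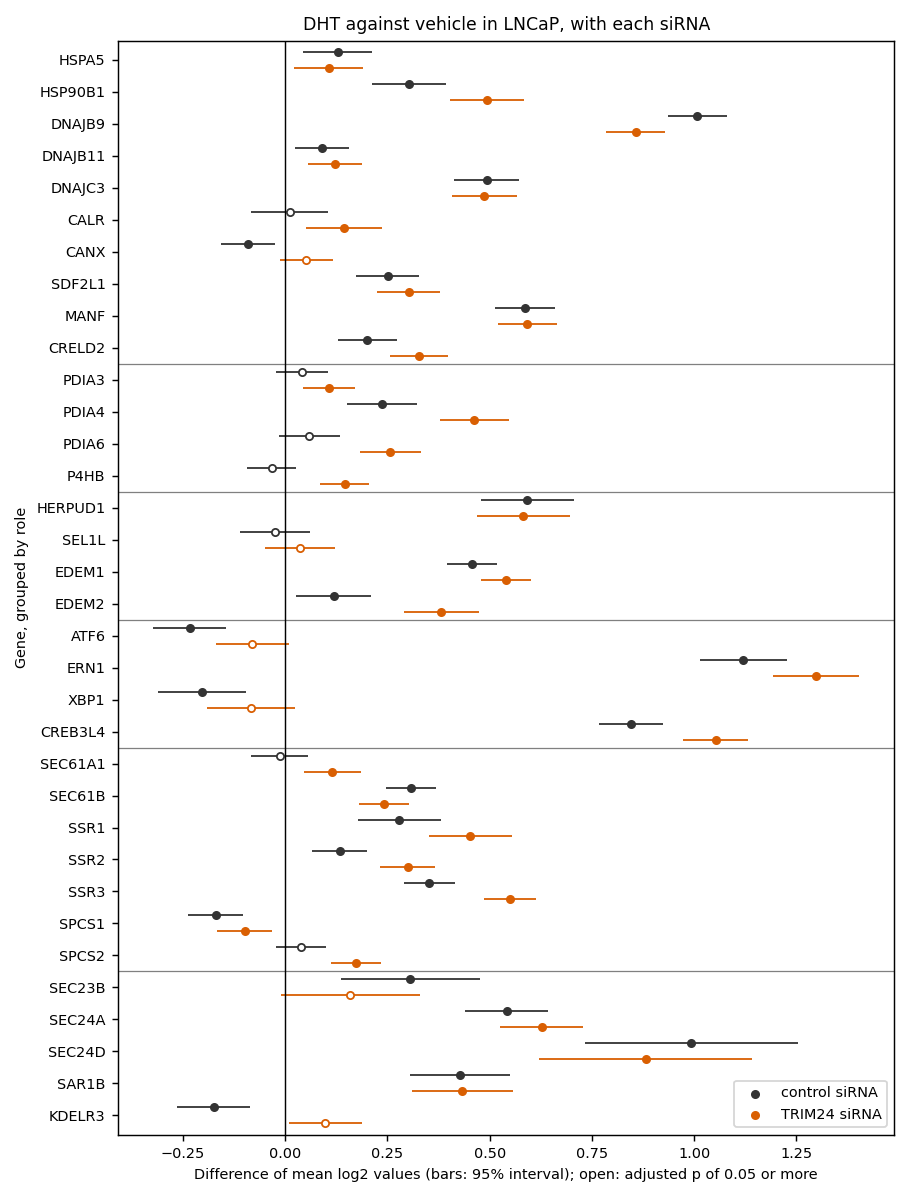
Difference of mean log2 values between DHT and vehicle in LNCaP for each gene, with control siRNA (black) and TRIM24 siRNA (orange); bars are 95% intervals, and open circles did not pass an adjusted p of 0.05. ERN1, DNAJB9, SEC24D and CREB3L4 lie farthest to the right with both siRNAs, at 0.85 to 1.30.

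With TRIM24 knocked down, 27 members rose with DHT and 1 fell, and 6 did not pass. Over all genes 43.5% were called, 16.9% higher and 26.6% lower, and the median was 0.30 over the members and -0.04 over all genes. The arrays of the 2 groups did not overlap for 32 members, against 56.4% of all genes. This comparison shares no array with the one above, and 21 members rose in both: HSPA5, HSP90B1, DNAJB9, DNAJB11, DNAJC3, SDF2L1, MANF, CRELD2, PDIA4, HERPUD1, EDEM1, EDEM2, ERN1, CREB3L4, SEC61B, SSR1, SSR2, SSR3, SEC24A, SEC24D and SAR1B. The share of all genes that rose in both was not counted. ERN1 read 9.24, 9.13 and 9.07 with vehicle and 10.45, 10.47 and 10.42 with DHT. That is the widest gap of any member, 1.30 ± 0.05 or 2.46-fold. CREB3L4 went from 9.56, 9.48 and 9.49 to 10.56, 10.57 and 10.56, a clear separation of 1.05 ± 0.04. SEC24D went from 8.54, 8.55 and 8.46 to 9.50, 9.35 and 9.35, again without overlap, by 0.88 ± 0.12.

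The 6 members that passed with the TRIM24 siRNA and did not with the control siRNA were CALR, PDIA3, PDIA6, P4HB, SEC61A1 and SPCS2, with rises of 0.14, 0.11, 0.26, 0.15, 0.12 and 0.17; that of CALR was lost without any 1 of 2 arrays. Whether their response differed between the siRNAs is given by the interaction described further on. It passed for PDIA6, P4HB and SPCS2 with the probe sets used. Other probe sets were called positive in it for CALR (0.26 and 0.32), PDIA3 (0.26) and SEC61A1 (0.23). In the fit of every probe set alone none of SPCS2 was called, so the split rests partly on the choice of probe set. SPCS1 was the only member that fell, from 13.50, 13.45 and 13.49 to 13.41, 13.41 and 13.34. Its groups did not overlap, but the difference was small, -0.10 ± 0.03, and the call was lost without any 1 of 3 arrays. HSPA5 rose by 0.11 ± 0.04 (adjusted p = 0.0406), and that call too was lost without any 1 of its 6 arrays. The second probe set of HSPA5 was called higher, at 0.32. ATF6, XBP1, CANX and KDELR3, which fell with the control siRNA, did not pass here, at -0.08, -0.08, 0.05 and 0.10. Another probe set of ATF6 was called higher, at 0.12, as were 2 of CANX, at 0.29 and 0.36.

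**Figure D3:**
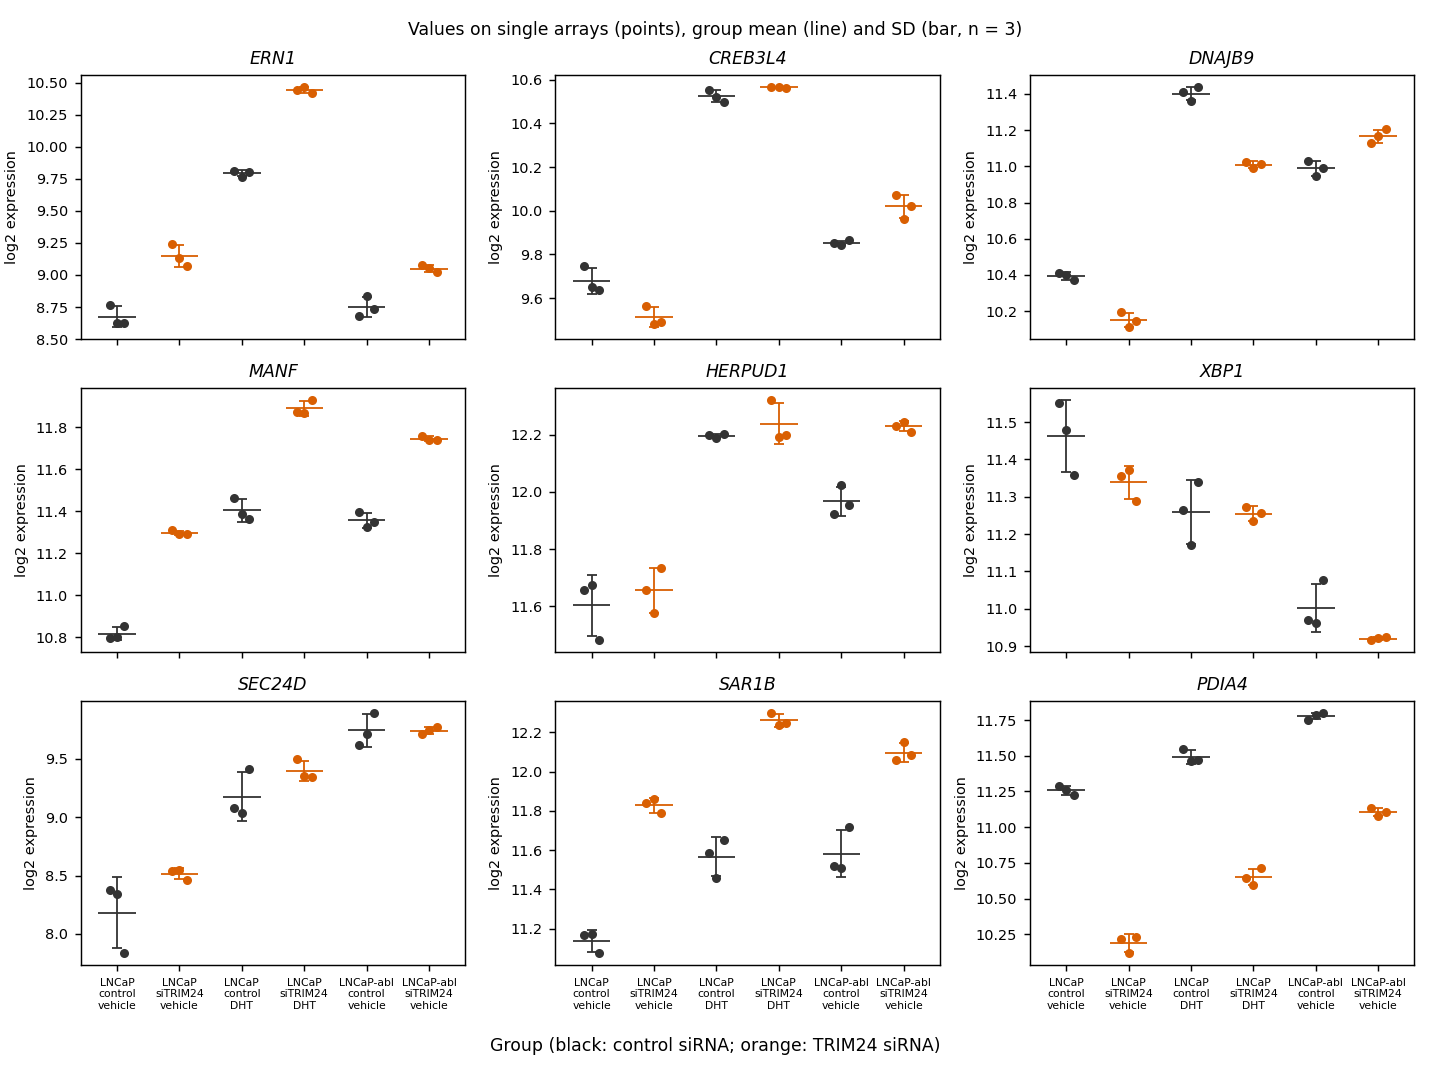
Log2 values on single arrays for 9 genes, with the group mean (line) and SD (bar, n = 3), control siRNA in black and TRIM24 siRNA in orange. ERN1 and CREB3L4 are highest in the 2 DHT groups, SEC24D is highest in the 2 LNCaP-abl groups, and PDIA4 is lower with TRIM24 siRNA than with control siRNA in each setting. The vertical scales differ between panels.

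The next comparisons ask what the TRIM24 siRNA does to these genes in 3 settings that share no arrays. In LNCaP with vehicle, 10 members rose and 9 fell, against 38.5% of all genes called, 20.5% higher and 18% lower, and the median was 0.01 over the members and 0.0037 over all genes. The arrays of the 2 groups did not overlap for 22 members, against 50.9% of all genes. With DHT, 17 rose and 5 fell, against 40.2% called, 19.4% higher and 20.8% lower, and arrays did not overlap for 26 members and 49.7% of all genes. In LNCaP-abl, 24 rose and 2 fell, against 45.6% called, 16.7% higher and 28.8% lower, with medians of 0.15 and -0.01, and arrays did not overlap for 28 members and 52% of all genes. Among bright genes (mean of at least 10) in LNCaP-abl 24.8% were higher and 36.5% lower, against 21 and 1 of 27 members. The 3' to 5' signal of GAPDH given above was higher with the TRIM24 siRNA in each setting. With it as a covariate 14 members were called in vehicle-treated LNCaP (9 higher, 5 lower; 13% and 12.2% of all genes), 13 under DHT (10 higher, 3 lower; 10.8% and 12.2% of all genes) and 17 in LNCaP-abl (16 higher, 1 lower; 7.74% and 16.5% of all genes). The members' medians were then 0.04, 0.11 and 0.21 in these 3 settings, against 0.01, 0.08 and 0.15 without the covariate.

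The largest fall among the members was, in each of the 3 settings, in PDIA4, a disulfide isomerase with several thioredoxin-like domains. It read 11.29, 11.26 and 11.22 with control siRNA and 10.22, 10.12 and 10.23 with TRIM24 siRNA in LNCaP with vehicle, so PDIA4 fell by 52.3% (-1.07 ± 0.04 on the log2 scale, adjusted p = 1.02e-11). With DHT it went from 11.55, 11.46 and 11.47 to 10.64, 10.59 and 10.71, by -0.84 ± 0.04. In LNCaP-abl it went from 11.75, 11.79 and 11.80 to 11.13, 11.08 and 11.11, by -0.67 ± 0.04. The arrays were separate in all 3 settings, and a second probe set of PDIA4 fell by similar amounts, -0.94, -0.64 and -0.64. The other isomerases did not follow it: PDIA6, PDIA3 and P4HB gave 0.03, 0.02 and -0.07 with vehicle, none past the test (other probe sets of PDIA6 and P4HB were called lower, at -0.12 and -0.14), and rose by 0.08 to 0.23 with DHT and by 0.09 to 0.19 in LNCaP-abl. The call of PDIA3 with DHT was lost without any 1 of 4 arrays, and that of P4HB in LNCaP-abl without any 1 of 2.

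KDELR3 also fell in all 3 settings, though its probe sets differ. It read 9.47, 9.39 and 9.42 with control siRNA and 9.0, 8.99 and 9.01 with TRIM24 siRNA in LNCaP with vehicle, a difference of -0.42 ± 0.04. In LNCaP-abl it went from 8.90, 8.86 and 8.82 to 8.77, 8.74 and 8.76, a small step of -0.11 ± 0.04 (adjusted p = 0.0489), without overlap, and the call was lost without any 1 of 15 arrays. With DHT the difference was -0.15 ± 0.04, a call lost without the first control array. The dimmest of its 3 probe sets was called higher there, at 0.62.

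In the opposite direction 9 members rose in all 3 settings with the probe set used: DNAJC3, SDF2L1, MANF, ERN1, SEC61A1, SEC61B, SSR3, SEC24A and SAR1B. The share of all genes that rose in all 3 settings was not counted. With DHT the calls of SEC61B and DNAJC3 were lost without any 1 of 4 and 2 arrays, and with vehicle that of DNAJC3 without 1 array. SAR1B rose most, from 11.17, 11.17 and 11.07 to 11.84, 11.86 and 11.79 in LNCaP with vehicle. Its 2 groups were well apart, at 0.69 ± 0.06 or 1.61-fold. With DHT it went from 11.59, 11.46 and 11.65 to 12.30, 12.24 and 12.25 (0.70 ± 0.06), and in LNCaP-abl from 11.52, 11.51 and 11.72 to 12.06, 12.15 and 12.08 (0.52 ± 0.06). No array of SAR1B overlapped in any setting, and its 5 probe sets all gave positive values. MANF went from 10.80, 10.80 and 10.85 to 11.31, 11.29 and 11.29 with vehicle, from 11.46, 11.38 and 11.36 to 11.87, 11.86 and 11.93 with DHT and from 11.40, 11.32 and 11.35 to 11.76, 11.74 and 11.74 in LNCaP-abl. These were even steps of 0.48, 0.49 and 0.39, each ± 0.03, with no overlap. ERN1 went from 8.77, 8.63 and 8.63 to 9.24, 9.13 and 9.07 with vehicle and from 9.81, 9.77 and 9.81 to 10.45, 10.47 and 10.42 with DHT, by 0.47 and 0.65. In LNCaP-abl ERN1 rose by 0.30 ± 0.05. The direction of ERN1 depends on the probe set with vehicle and in LNCaP-abl. There a second one was called lower with vehicle, at -0.21, and gave -0.16 in LNCaP-abl, and the dimmest gave -0.11 and -0.03. With DHT all 3 were positive, the second at 0.04 and the dimmest at 0.24. SEC24A has a like limit in all 3 settings, with 0.19, 0.28 and 0.23 from the probe set used. Another one was called lower in all 3, at -0.20, -0.18 and -0.31.

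**Figure D4:**
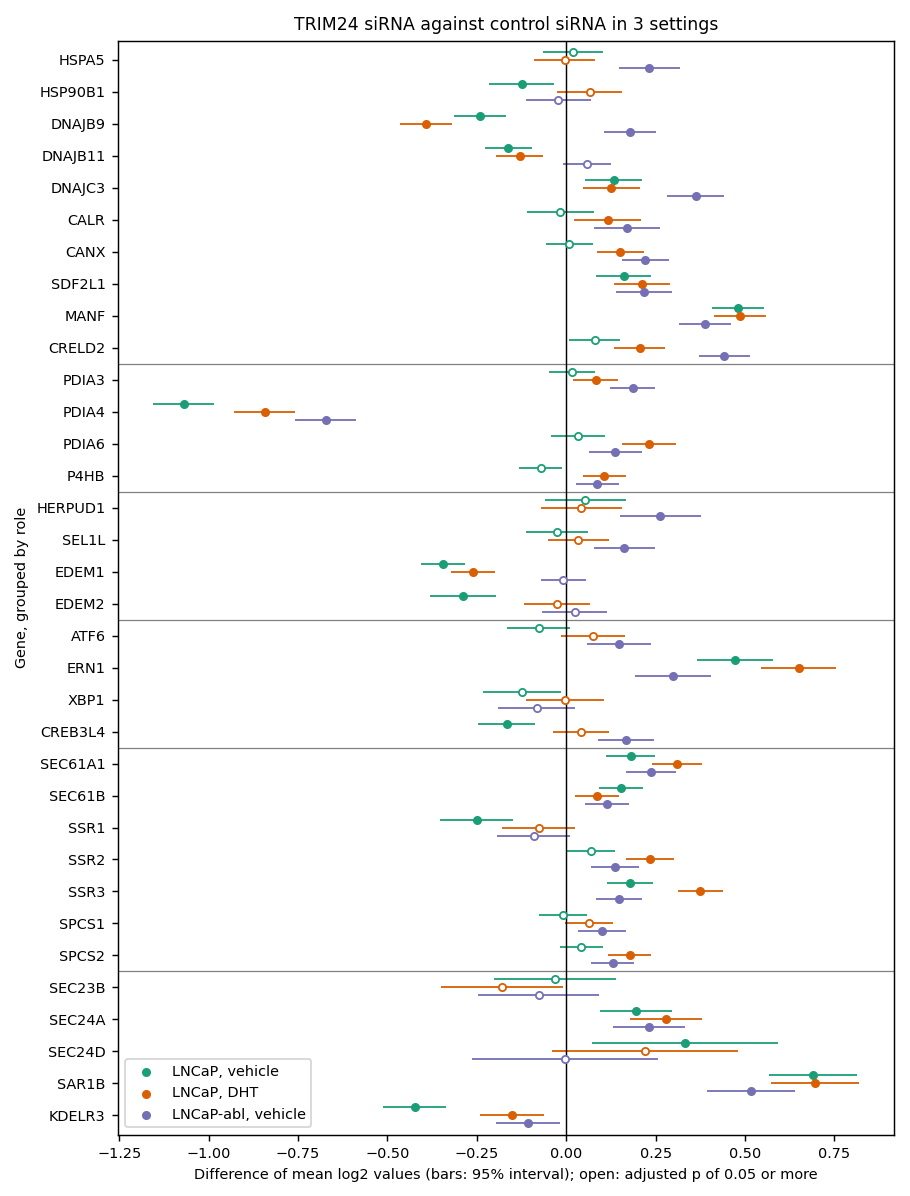
Difference of mean log2 values between TRIM24 siRNA and control siRNA for each gene in LNCaP with vehicle (green), LNCaP with DHT (orange) and LNCaP-abl with vehicle (purple); bars are 95% intervals, and open circles did not pass an adjusted p of 0.05. PDIA4 lies alone at the left at -1.07 to -0.67, and SAR1B is farthest right with vehicle and with DHT, at 0.69 and 0.70.

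Several folding and degradation genes fell with the TRIM24 siRNA in LNCaP and rose or did not pass in LNCaP-abl. EDEM1 read 9.93, 9.94 and 9.95 with control siRNA and 9.56, 9.64 and 9.58 with TRIM24 siRNA in LNCaP with vehicle, and 10.38, 10.40 and 10.41 against 10.11, 10.16 and 10.14 with DHT. Both pairs of groups were separate, at -0.34 ± 0.03 and -0.26 ± 0.03, while LNCaP-abl gave -0.01 ± 0.03. DNAJB9 went from 10.41, 10.40 and 10.37 to 10.19, 10.11 and 10.15 with vehicle and from 11.41, 11.36 and 11.44 to 11.02, 10.99 and 11.01 with DHT. Those falls of -0.24 ± 0.03 and -0.39 ± 0.03 stand against a rise in LNCaP-abl, from 11.03, 10.95 and 10.99 to 11.13, 11.16 and 11.20 (0.18 ± 0.03). CREB3L4 likewise fell by 0.17 in LNCaP with vehicle and rose by 0.17 in LNCaP-abl. DNAJB11 and EDEM2 fell in LNCaP with vehicle by 0.16 and 0.29 and did not pass in LNCaP-abl, at 0.06 and 0.02, and the difference between the lines passed for both. HSP90B1, the ER member of the HSP90 family, fell by 0.12 with vehicle, a call lost without any 1 of 4 arrays, and gave -0.02 in LNCaP-abl. Its difference between the lines did not pass, at 0.10 (adjusted p = 0.225 in limma). SSR1 fell by 0.25 with vehicle and gave -0.09 in LNCaP-abl, where 3 of its 5 other probe sets were called lower, at -0.10, -0.20 and -0.19. SEC24D rose by 0.33 in LNCaP with vehicle, a call lost without any 1 of 4 arrays. Without control replicate 3, its low array, the difference was 0.16 with an adjusted p of 0.238. XBP1 passed in none of the 3 settings, with values from -0.12 to -0.004. SEC23B did not pass either with the probe set used, at -0.03, -0.18 and -0.08, but a second one was called lower with vehicle and with DHT, at -0.19 and -0.24, and gave -0.03 in LNCaP-abl.

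In LNCaP-abl the knockdown raised 8 of the 10 chaperones and co-chaperones. CRELD2, a secreted ER stress protein, read 11.06, 11.07 and 11.10 with control siRNA and 11.54, 11.51 and 11.50 with TRIM24 siRNA, which is 0.44 ± 0.03 without overlap. DNAJC3 rose by 0.36 ± 0.04, HSPA5 by 0.23 ± 0.04, CANX by 0.22 ± 0.03, SDF2L1 by 0.22 ± 0.04 and CALR by 0.17 ± 0.04. HSPA5 gave 0.02 and -0.0044 with the knockdown in vehicle-treated and DHT-treated LNCaP, so its group means of 13.44, 13.46, 13.57 and 13.56 in LNCaP stand beside 13.46 and 13.69 in LNCaP-abl. The second probe set of HSPA5 gave -0.02 and 0.07 in these LNCaP settings and was called higher in LNCaP-abl, at 0.35. With control siRNA and vehicle that probe set was called lower in LNCaP-abl than in LNCaP, at -0.24. HERPUD1 also rose in LNCaP-abl, by 0.26, and passed in neither LNCaP setting, at 0.05 and 0.04. ATF6 rose by 0.15 in LNCaP-abl, a call lost without 1 array, and its 3 other probe sets gave -0.06, -0.12 and 0.0018 there. In LNCaP the probe set used for ATF6 did not pass, at -0.08 with vehicle and 0.08 with DHT, but the 3 others gave -0.26, -0.20 and -0.24 with vehicle, the first and last called, and -0.14, -0.18 and -0.14 with DHT, the first called. SEL1L rose by 0.16 in LNCaP-abl, where its other probe sets gave 0.14, which was called, 0.15 and -0.05. With vehicle the probe set used for SEL1L did not pass, at -0.03, but another was called lower, at -0.34. SAR1B, CRELD2, MANF and PDIA4 kept their calls with the GAPDH covariate.

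Whether the knockdown acted differently with and without DHT was tested as an interaction, which is the knockdown difference with DHT minus that with vehicle. It was positive and called for 10 members, CANX, PDIA4, PDIA6, P4HB, EDEM2, CREB3L4, SSR2, SSR3, SPCS2 and KDELR3, against 11.1% of all genes called, 5.38% positive and 5.7% negative. No member was called negative by limma, and 1 was negative at an unadjusted p under 0.05, against 17 positive. The median was 0.12 over the members and -0.01 over all genes. KDELR3 and EDEM2 had the largest values, 0.27 ± 0.06 and 0.26 ± 0.06, and EDEM2 moved by -0.29 with the knockdown under vehicle and by -0.03 under DHT. For PDIA6 and P4HB the knockdown differences were 0.03 and -0.07 with vehicle and 0.23 and 0.11 with DHT. The same values read as DHT responses are 0.06 and -0.03 with control siRNA and 0.26 and 0.15 with TRIM24 siRNA. The calls of CANX, SPCS2 and SSR2 were lost without any 1 of 14, 13 and 6 arrays. In all, 4 members were called when arrays were centred on their medians, against 8.83% of all genes, and 6 without the second array of LNCaP with TRIM24 siRNA and vehicle, against 7.98%. SSR1 did not pass at 0.17 with the probe set used, while its 5 other probe sets were called positive, at 0.27 to 0.43. Other probe sets of CALR, PDIA3, SEC61A1, SEL1L and SAR1B were also called positive, at 0.23 to 0.68. In DNAJB9 another probe set was called negative, at -0.33.

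The interaction of knockdown with cell line, the difference in LNCaP-abl minus that in LNCaP with vehicle, was positive and called for 17 members, against 28.5% of all genes called, 8.6% positive and 19.9% negative. Again limma called no member negative, and 2 were negative at an unadjusted p under 0.05, against 20 positive. The median was 0.16 over the members and -0.03 over all genes, and among bright genes 14.5% were positive and 23.9% negative, against 13 positive of 27 members. All 4 measured degradation genes and 7 of 10 chaperones and co-chaperones were among the 17. DNAJB9 had the largest value, 0.42 ± 0.05 (adjusted p = 1.57e-05), followed by PDIA4 with 0.40 ± 0.06, CRELD2 with 0.36 ± 0.05, EDEM1 with 0.34 ± 0.04 and CREB3L4 with 0.33 ± 0.05. PDIA4 fell in both lines and less in LNCaP-abl, while DNAJB9 and CREB3L4 fell in LNCaP and rose in LNCaP-abl. The 7 genes of ER entry were not among the 17 and had values from -0.04 to 0.16, which for SSR1 rests on the choice of probe set. SSR1 gave 0.16 with the probe set used, while its 5 other probe sets were all called positive, at 0.27 to 0.53. The calls of HERPUD1, CALR and SEL1L were lost without any 1 of 14, 7 and 3 arrays.

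LNCaP-abl was set against LNCaP to ask which ER genes differ in the cells that grow without androgen. With vehicle and control siRNA in both, 19 members were higher in LNCaP-abl and 8 lower, against 63.8% of all genes called, 29.1% higher and 34.6% lower, and the median was 0.12 over the members and -0.02 over all genes. The arrays of the 2 groups did not overlap for 27 members, against 66.6% of all genes. SEC24D differed most, at 8.38, 8.34 and 7.83 in LNCaP and 9.62, 9.72 and 9.90 in LNCaP-abl. Every LNCaP-abl array was more than a log2 unit above every LNCaP array, and the difference was 1.56 ± 0.12 or 2.95-fold. DNAJB9 read 10.41, 10.40 and 10.37 in LNCaP and 11.03, 10.95 and 10.99 in LNCaP-abl (0.59 ± 0.03). SEC24A read 9.36, 9.35 and 9.31 against 9.89, 9.95 and 9.92 (0.58 ± 0.05), and neither gene overlapped. MANF, PDIA4 and SDF2L1 were higher by 0.54, 0.52 and 0.51.

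The 8 members lower in LNCaP-abl were KDELR3, XBP1 and CRELD2, and by smaller differences EDEM1 (-0.18), ATF6 (-0.16), SPCS2 (-0.13), SEC61A1 (-0.12) and DNAJB11 (-0.08). The call of DNAJB11 was lost without any 1 of 4 arrays. For SPCS2 the other probe sets gave 0.02 and 0.15, neither called, so its direction rests on the choice of probe set. KDELR3 read 9.47, 9.39 and 9.42 in LNCaP and 8.90, 8.86 and 8.82 in LNCaP-abl, a difference of -0.56 ± 0.04. XBP1 read 11.55, 11.48 and 11.36 against 10.97, 10.96 and 11.08 (-0.46 ± 0.05), and CRELD2 read 11.45, 11.39 and 11.49 against 11.06, 11.07 and 11.10 (-0.37 ± 0.03). KDELR3, XBP1 and CRELD2 were lower on every LNCaP-abl array. ERN1, the sensor with the largest DHT response, differed by 0.08 ± 0.05 and did not pass, while its second probe set was called higher, at 0.22. SSR1 was higher by 0.28 with the probe set used, while its 5 other probe sets gave 0.33 to 1.70.

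Against LNCaP with DHT, where both carried the control siRNA, 9 members were higher in LNCaP-abl and 15 lower, with 67.6% of all genes called, 33.2% higher and 34.4% lower. The arrays of the 2 groups did not overlap for 25 members, against 69.2% of all genes. The LNCaP-abl arrays are the same as in the comparison before, so both are given side by side. ERN1 read 9.81, 9.77 and 9.81 in LNCaP with DHT and 8.68, 8.83 and 8.74 in LNCaP-abl (-1.04 ± 0.05). CREB3L4 read 10.55, 10.52 and 10.50 against 9.85, 9.84 and 9.86 (-0.67 ± 0.04), and EDEM1 read 10.38, 10.40 and 10.41 against 9.77, 9.77 and 9.75 (-0.63 ± 0.03). These 3 DHT-raised genes were lower on every LNCaP-abl array. SEC24D, CALR and PDIA6 were highest above LNCaP with DHT. SEC24D read 9.08, 9.03 and 9.41 against 9.62, 9.72 and 9.90 (0.57 ± 0.12), CALR 11.80, 11.69 and 11.74 against 12.15, 12.15 and 12.12 (0.40 ± 0.04), and PDIA6 12.35, 12.38 and 12.40 against 12.76, 12.68 and 12.70 (0.34 ± 0.03).

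The DHT comparison and both comparisons of the lines share arrays, so the group means are given side by side, for control siRNA only, with the vehicle and DHT groups of LNCaP first and LNCaP-abl last. MANF had 10.82, 11.40 and 11.36, so LNCaP-abl without androgen lay near LNCaP with DHT, at a difference of -0.05 (95% interval -0.12 to 0.02). SAR1B had 11.14, 11.57 and 11.58 with the probe set used, a difference from LNCaP with DHT of 0.02 (interval -0.11 to 0.14). Its 4 other probe sets were all called higher in LNCaP-abl than in LNCaP with DHT, at 0.12, 0.47, 0.32 and 0.48, so the nearness rests on the choice of probe set. HERPUD1 had 11.60, 12.20 and 11.97, so LNCaP-abl lay between the LNCaP groups, higher than vehicle by 0.36 and below DHT at -0.23. DNAJC3 had 11.42, 11.92 and 11.58, with differences of 0.16 from vehicle and -0.34 from DHT. Its 3 other probe sets were also called lower than with DHT, at -0.42, -0.62 and -0.63, but against vehicle 1 of them was called, at 0.34, and the others gave -0.02 and 0.04. SSR3 was above LNCaP with DHT by 0.12, but its 3 other probe sets gave -0.45, -0.21 and 0.32.

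**Figure D5:**
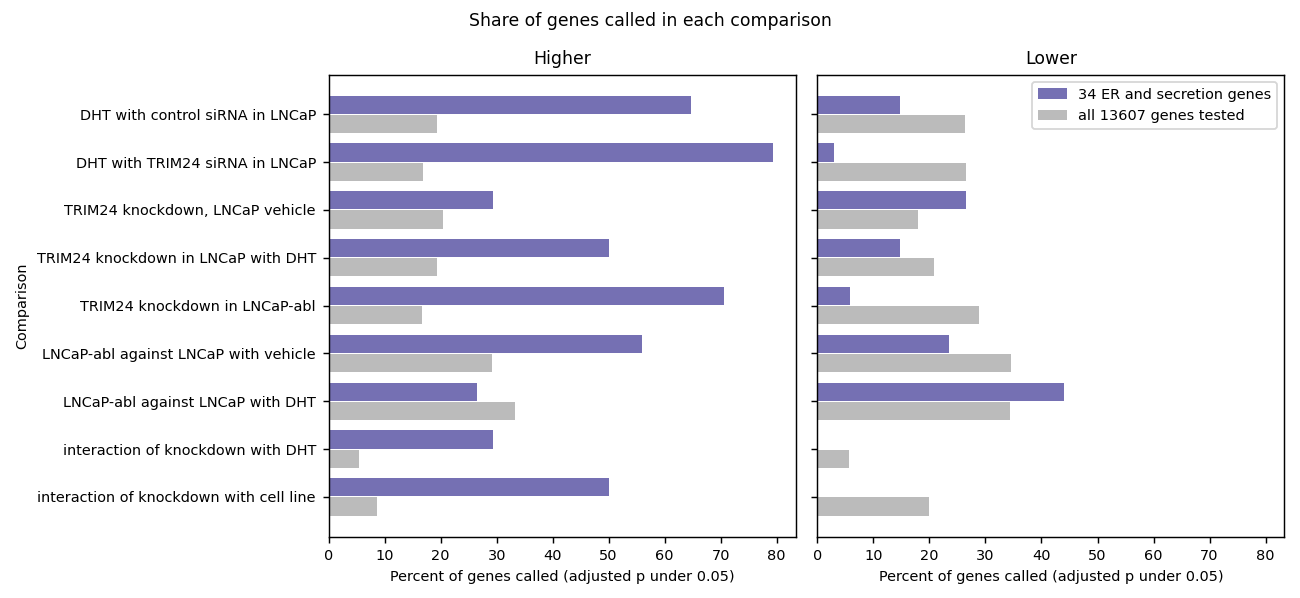
Percent of the 34 measured ER genes (purple) and of all 13607 genes tested (grey) that were called higher (left) or lower (right) in each of the 9 comparisons. The purple bar is longer than the grey one on the left in 8 comparisons, the exception being LNCaP-abl against LNCaP with DHT, at 26.5% and 33.2%.

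Other genes of the same pathway were counted in the same way, from lists written with earlier results of these data known; 79 of 83 listed genes were tested outside the ATF4 arm of the response. With DHT and control siRNA 31 rose (39.2%, against 19.4% of all genes) and 20 fell (25.3%, against 26.4%), with a median of 0.03. With DHT and TRIM24 siRNA 49 rose (62%, against 16.9%) and 8 fell (10.1%, against 26.6%), with a median of 0.14. By list, 14 of 23 genes of vesicle export and retrieval rose and 5 fell, while 5 of 9 subunits of the oligosaccharyl transferase, which attaches sugars to new proteins, fell and 2 rose. UBE2J1, a ubiquitin-conjugating enzyme of the ER, rose by 0.90 ± 0.04, and by 0.60 as the mean of its 6 probe sets. EDEM3, a mannosidase of degradation, rose by 0.70 ± 0.05 and SEC24B, a further cargo subunit, by 0.68 ± 0.04. CREB3L2, a relative of CREB3L4, rose by 0.65 ± 0.03, but by 0.21 as the mean of its 3 probe sets. The ATF4 arm, which answers amino acid shortage and PERK, did not rise with them: of 7 genes 4 fell and 1 rose with control siRNA, with ASNS, asparagine synthetase, at -0.38 ± 0.05 and DDIT3, the stress factor CHOP, at -0.27 ± 0.04. With TRIM24 siRNA 3 of these 7 fell with DHT, and DDIT3 gave -0.43 ± 0.04.

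With the knockdown, genes of the wider pathway were called in both directions. In vehicle-treated LNCaP 18 rose and 28 fell, or 22.8% and 35.4%, against 20.5% and 18% of all genes. Under DHT 35 rose and 13 fell, or 44.3% and 16.5%, against 19.4% and 20.8%. For LNCaP-abl 32 rose and 17 fell, or 40.5% and 21.5%, against 16.7% and 28.8%. SPCS3, a signal peptidase subunit, fell by -2.05 ± 0.04, -1.50 ± 0.04 and -1.23 ± 0.04 in the 3 settings, and by -0.85, -0.46 and -0.49 as the mean of its 3 probe sets. UGGT1, the sensor that sends misfolded glycoproteins back to the lectin chaperones, fell by -1.31 ± 0.03, -1.04 ± 0.03 and -0.77 ± 0.03, and by -0.83, -0.64 and -0.49 as the mean of its 5 probe sets. GOLT1B, a Golgi transport protein, rose by 1.64 ± 0.05, 1.65 ± 0.05 and 1.35 ± 0.05, and by 0.91, 1.08 and 0.79 as the mean of 2 probe sets. EIF2AK3, the PERK sensor, rose by 0.76 ± 0.05 with vehicle, by the same with DHT and by 0.97 ± 0.05 in LNCaP-abl. The mean of its 2 probe sets was 0.41 with DHT and 0.47 in LNCaP-abl. With vehicle 2 genes of the same list had smaller adjusted p. They were CREB3L2, at 0.75 ± 0.03, and MBTPS2, which fell, at -0.64 ± 0.03. As means of 3 probe sets these were 0.13 and -0.31. DDIT3 rose by 0.17 in LNCaP with vehicle and 0.23 in LNCaP-abl. Of the 7 genes of the ATF4 arm, 2 rose and 0 fell in LNCaP with vehicle, and 0 were called with DHT. For LNCaP-abl the count was 2 higher and 1 lower. The shares called were 28.6%, 0% and 42.9% in the 3 settings, against 38.5%, 40.2% and 45.6% of all genes. The interaction with DHT was called positive for 29 of 79 and negative for 1, or 36.7% and 1.27%, against 5.38% and 5.7% of all genes. That with the cell line was positive for 36 and negative for 6, or 45.6% and 7.59%, against 8.6% and 19.9%. In LNCaP-abl against LNCaP with vehicle 32 were higher and 30 lower, or 40.5% and 38%, against 29.1% and 34.6% of all genes, with SEC11C, the catalytic subunit of a signal peptidase complex, at -1.53 ± 0.05, ERP44, a retention factor of the early secretory pathway, at -1.03 ± 0.03 and SRPRA, a subunit of the signal recognition particle receptor, at 0.85 ± 0.04.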

How the data were processed

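The values analysed are log2 expression levels deposited by the authors. The submitters' processing notes name RMA, whose version is not given in the sources used here. RMA draws all arrays to one distribution, which hides any shift common to most genes. Of 54675 probe sets, 41097 carried 1 gene symbol in the platform annotation, 1801 several and 11777 none. Of the 41097, 41043 were matched to RefSeq by gene ID and took its symbol, whether or not it differed. Probe sets with several symbols were left unnamed. Each gene was represented by its brightest probe set (highest mean over 18 arrays). The members have 89 probe sets, 86 of them tested. Genes entered the tests when at least 3 arrays read 5.88 or more, the table's median.

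In R 4.3.3, limma 3.58.1 fitted 1 mean per group to the 18 arrays, with 12 residual degrees of freedom and Benjamini-Hochberg adjustment over 13607 genes in each of 9 comparisons; tests were two-sided. Errors are standard errors unless said otherwise. The script was tested on simulated data. The members and lists were chosen with earlier results of these data known. All members could be named, with single arrays given for up to 3 called members with the largest rise and 3 with the largest fall in each comparison; HSPA5 and the members of the printed promoters or side-by-side means were added after their values were seen, as was the count among bright genes. Of the other pathway lists, up to 2 called genes with the smallest adjusted p were named per list and comparison. The value of EIF2AK3 with vehicle was given outside this rule. Alternatives were other low-value filters, probe set choices, scalings, samples in the fit, variance models, the replicate block, the GAPDH 3' to 5' covariate and the omission of each array. Promoter sequences are RefSeq's.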

Additional observations from a re-analysis of the deposited data

Results flagged for a closer look

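The knockdown difference with DHT differed from that with vehicle, by a test of the interaction in the limma fit over all genes, for 10 of the 34 measured genes, all in the positive direction. The values, on the log2 scale, were 0.2725 for KDELR3, 0.2632 for EDEM2, 0.2262 for PDIA4, 0.207 for CREB3L4, 0.1987 for PDIA6, 0.1965 for SSR3, 0.1786 for P4HB, 0.167 for SSR2, 0.1426 for CANX and 0.1346 for SPCS2. Adjusted p-values ran from 0.00702 for SSR3 to 0.0466 for CANX. The calls of CANX, SPCS2 and SSR2 were lost without any 1 of 14, 13 and 6 arrays.

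The knockdown difference in LNCaP-abl differed from that in LNCaP with vehicle for 17 genes, again all positive. In the chaperones and co-chaperones the values were 0.419 for DNAJB9, 0.3623 for CRELD2, 0.2286 for DNAJC3, 0.22 for DNAJB11, 0.2143 for HSPA5, 0.2126 for CANX and 0.1872 for CALR. In the disulfide isomerases they were 0.3966 for PDIA4, 0.1693 for PDIA3 and 0.1584 for P4HB. In degradation they were 0.3362 for EDEM1, 0.3126 for EDEM2, 0.2097 for HERPUD1 and 0.1885 for SEL1L. CREB3L4 had 0.3331, ATF6 0.2247 and KDELR3 0.3175. Adjusted p-values ran from 1.57e-05 for DNAJB9 to 0.0485 for HERPUD1, whose call was lost without any 1 of 14 arrays.

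Groups of 3 arrays were too small for the check on single outlying arrays, so none was run.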

How the results depend on the processing

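Leaving out 1 array at a time gave 23 to 27 called genes of 34 for DHT with control siRNA, 25 to 29 with TRIM24 siRNA, 17 to 20, 18 to 23 and 24 to 26 for the 3 knockdown comparisons (vehicle-treated LNCaP, DHT-treated LNCaP, LNCaP-abl), 24 to 27 and 22 to 24 for LNCaP-abl against LNCaP with vehicle and with DHT, 6 to 11 for the interaction with DHT and 14 to 18 for that with cell line; the 6 came without the second array of LNCaP with TRIM24 siRNA and vehicle, when 7.98% of all genes were called. Over all genes the shares called were, in the same order, 40.7% to 46.4%, 39.1% to 44.6%, 33.6% to 38.9%, 35.7% to 41.4%, 40.3% to 47%, 60% to 64.1%, 64.4% to 68.4%, 7.63% to 11.8% and 23.3% to 29.3%. With the GAPDH 3' to 5' covariate 13 and 17 genes were called for the knockdown with DHT and in LNCaP-abl, against 23% and 24.3% of all genes, and with arrays centred on their medians 4 for the interaction with DHT, against 8.83%. With every probe set tested alone, 55, 68, 46, 51, 58, 64, 65, 27 and 44 of 86 probe sets were called in the 9 comparisons, in the order DHT with control and TRIM24 siRNA, the 3 knockdowns, the 2 line comparisons and the 2 interactions; of all 29870 probe sets 39.7%, 37.9%, 33.9%, 35.3%, 41.1%, 59.7%, 63.5%, 6.85% and 21.4% were called.

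Of 200 called gene values, 181 were called in the same direction without the low-value filter, 200 with a stricter one, 175 with median centring, 194 with quantile normalization, 176 with only the groups compared in the fit, 198 with an intensity trend and robust variances and 167 with the covariate; the rest no longer passed. Replicate numbers did not pair the arrays: same-numbered arrays of different groups correlated at -0.297 to 0.196 in their deviations, 6 of 45 pairs above 0.1, and 5 of 18 arrays matched their own number best. The replicate block kept 192 of the 200 calls.

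Directions turned only with another choice of probe set, and why the probe sets of a gene differ was not tested. With the most variable probe set, ATF6 gave 0.0048 for DHT with control siRNA, ERN1 -0.2079 and -0.1601 for the knockdown in LNCaP with vehicle and LNCaP-abl, SEC24A -0.0024 and -0.3597, KDELR3 0.1318 and 0.1306, and 0.6188 with DHT, and SEL1L -0.0529 in LNCaP-abl. SPCS2 gave 0.148 and SEC24A -0.067 for LNCaP-abl against LNCaP with vehicle, and KDELR3 -0.0012 for the interaction with cell line. With the mean of a gene's probe sets, SEC24A gave -0.0039 and -0.1467 for the knockdown in LNCaP with vehicle and LNCaP-abl, KDELR3 0.1648 with DHT and 0.0035 in LNCaP-abl, ATF6 -0.0066 in LNCaP-abl, SPCS2 0.0109 for LNCaP-abl against LNCaP with vehicle and SSR3 -0.0581 against LNCaP with DHT. The number of arrays, 3 a group, limits the precision.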

Other observations

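The listed genes of folding and redox outside the 36 members were mostly lower in LNCaP-abl. Of 14 tested, 1 was higher and 10 were lower in LNCaP-abl than in LNCaP with vehicle, with a median of -0.16, against 29.1% higher and 34.6% lower over all genes. SIL1, the nucleotide exchange factor of HSPA5, was at -0.63 ± 0.05. In degradation SELENOS, a partner of VCP at the ER membrane, was higher by 0.69 ± 0.03 and MAN1B1, a mannosidase, lower at -0.84 ± 0.04. With DHT, ERP29, an ER chaperone, fell by -0.46 ± 0.04 with control siRNA and -0.48 ± 0.04 with TRIM24 siRNA. The oligosaccharyl transferase gave 5 positive calls of 9 in the interaction with DHT and 7 of 9 in that with cell line, against 5.38% and 8.6% of all genes.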
